A study of Rattus norvegicus with 294 samples.

Results

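The genes described here are the nuclear-encoded genes of the mitochondrial respiratory chain and its ATP synthase, measured in bone cells of rats treated with sclerostin antibody (Scl-Ab). Members were chosen by symbol alone: names starting with Nduf, Uqcr or Atp5, the Cox4 to Cox8 families, and Sdha to Sdhd. Of 14217 genes with a probe set that names 1 gene, 86 met this rule. They comprise 34 complex I subunits (6 core and 28 accessory), 6 complex I assembly factors, 4 complex II subunits, 7 complex III subunits, 19 complex IV genes and 16 ATP synthase (complex V) genes. The complex IV genes are 11 ubiquitous members, 7 isoforms found mainly in particular tissues and 1 pseudogene (Cox6c-ps1). The rule takes in Ndufa4, a complex IV subunit once assigned to complex I. It leaves out the subunits encoded in mitochondrial DNA.

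The respiratory chain sits in the inner mitochondrial membrane. Complex I takes electrons from NADH and complex II takes them from succinate. Complex III passes them through cytochrome c to complex IV, which reduces oxygen, and the proton gradient that complexes I, III and IV build drives ATP synthesis by complex V. Bone-forming osteoblasts use both glycolysis and oxidative phosphorylation, and matrix synthesis has a high energy cost. Sclerostin, the product of Sost in osteocytes, restrains Wnt signalling, and antibodies that neutralise it increase bone formation.

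All animals were female Sprague-Dawley rats, ovariectomised at 6 months of age and left untreated for 8 weeks. They then received weekly subcutaneous vehicle or Scl-Ab at 3 or 50 mg/kg until day 183 at the latest. Vehicle and both doses were sampled on days 8, 29, 85 and 183. After dosing stopped, vehicle and 3 mg/kg were sampled on days 197 and 267, and vehicle and 50 mg/kg on days 237 and 309. Calcein at 10 mg/kg, given 13 and 3 days before the end, marked forming surfaces and guided the capture of cells. Osteoblasts, lining cells and osteocytes were cut by laser from sections of the third lumbar vertebra. Amplified RNA was hybridised to Affymetrix rat arrays, 97 for osteoblasts, 100 for lining cells and 97 for osteocytes. Groups held 5 arrays, except for 4 in 3 osteoblast groups (day 8 with 3 mg/kg, days 85 and 237 with 50 mg/kg), 4 in osteocytes of day 29 with 3 mg/kg, and 3 in osteocytes of day 85 with 50 mg/kg. Each of a group's arrays came from a different rat, but the same rats gave all 3 cell types and the labels used here do not tie arrays to rats. Every rat was ovariectomised, so no group shows intact animals.

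The promoters of the members are shown first, ahead of the rise of many of them on day 8 (described after this). A link between promoter sequence and that rise was not tested. RefSeq promoter sequence (assembly GRCr8) was found for 78 of the 86 members. Within the 250 bases before the start, 9 of the 78 (11.5%) held GCGCATGC or its reverse complement GCATGCGC, the core of the motif bound by NRF1, a regulator of nuclear genes for mitochondrial proteins. This compares with 459 of 11733 measured genes (3.9%) and 653 of all 27457 promoters (2.4%). The ETS core CCGGAAG or its reverse complement CTTCCGG, the type of site bound by GABP (NRF2), stood in 21 of the 78 (26.9%), against 12.9% of measured genes and 7.7% of all promoters. The YY1 core AAGATGGC or its reverse complement GCCATCTT stood in 2 of the 78 (2.6%), against 1.9% of measured genes and 1.7% of all promoters. By complex, the NRF1 core was in 2 of 32 complex I promoters, 2 of 6 of assembly factors, 1 of 4 of complex II, 1 of 6 of complex III, 0 of 15 of complex IV and 3 of 15 of complex V. The ETS core was in 7 of 32, 2 of 6, 2 of 4, 3 of 6, 2 of 15 and 5 of 15 in the same order. Among the 19 genes higher on day 8 that had a promoter sequence, 2 held the NRF1 core (Uqcrc1 and Atp5po) and 3 the ETS core (Atp5f1a, Cox5b and Uqcrh). These are 10.5% and 15.8%, against 11.5% and 26.9% of the 78 members, and 0 held the YY1 core. Neither the NRF1 nor the ETS core was thus more frequent among them than in the family. A match of letters is a description and not a shown binding site.

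Some of the genes that rose on day 8 are printed, 5′ to 3′ on the gene's strand and ending just before the start, to show a promoter with each core and the gene with the largest rise, which held none of the 3. They were picked to show the cores, and most of the genes that rose held none of the 3. Capitals mark the NRF1 or ETS core. The Ndufa12 stretch is chr7:30658066-30658315 on the plus strand, and the Cox5b stretch is chr9:46417587-46417836 on the plus strand, with the ETS core 14 to 8 bases before the start. The Atp5po stretch is chr11:44657484-44657733 on the minus strand, where the NRF1 core 59 to 52 bases before the start overlaps its own reverse complement at 57 to 50 bases. The Uqcrh stretch is chr5:134790883-134791132 on the minus strand, with the reverse complement of the ETS core 83 to 77 bases before the start.
Ndufa12: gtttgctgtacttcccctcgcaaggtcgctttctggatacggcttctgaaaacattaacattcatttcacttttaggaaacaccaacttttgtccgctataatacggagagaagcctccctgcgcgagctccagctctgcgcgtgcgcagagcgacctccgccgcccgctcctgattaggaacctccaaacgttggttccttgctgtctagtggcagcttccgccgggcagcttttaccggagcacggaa
Cox5b: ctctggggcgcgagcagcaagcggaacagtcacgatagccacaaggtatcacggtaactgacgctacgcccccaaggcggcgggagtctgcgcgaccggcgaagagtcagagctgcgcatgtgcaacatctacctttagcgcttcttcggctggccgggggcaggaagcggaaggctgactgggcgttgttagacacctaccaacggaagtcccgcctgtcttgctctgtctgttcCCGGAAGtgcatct
Atp5po: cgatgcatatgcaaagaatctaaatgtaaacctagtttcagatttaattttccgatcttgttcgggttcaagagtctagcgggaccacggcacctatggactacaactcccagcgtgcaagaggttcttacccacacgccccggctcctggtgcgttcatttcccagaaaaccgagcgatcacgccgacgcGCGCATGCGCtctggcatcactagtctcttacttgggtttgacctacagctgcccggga
Uqcrh: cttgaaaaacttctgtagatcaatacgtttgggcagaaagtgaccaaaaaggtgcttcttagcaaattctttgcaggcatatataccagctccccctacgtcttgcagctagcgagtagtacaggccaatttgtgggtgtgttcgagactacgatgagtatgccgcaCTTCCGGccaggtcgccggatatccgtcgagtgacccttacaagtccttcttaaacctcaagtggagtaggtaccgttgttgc

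Values are log2 RMA signals, a scale on which 1 unit is a doubling. Probe sets differ in brightness, so no gene's signal is set against another gene's. The labelled cell types were checked in vehicle arrays of day 8. Osteoblast markers summed to 14.06 to 14.26 in osteoblasts, 13.64 to 14.33 in osteocytes and 11.4 to 12.46 in lining cells, and osteocyte markers to 12.24 to 12.78 in osteocytes against 9.19 to 10.18 in osteoblasts and 7.68 to 9.41 in lining cells. In that osteocyte group Sost and Fgf23 were at or below the array median, and the osteoblast markers do not separate osteocytes from osteoblasts. Erythroid and granulocyte markers lay above the array median in all cell types except for Mmp8 in osteocytes, so marrow RNA was present. In such captured samples fewer cells of a type and less RNA per cell cannot be told apart. The spread of signal on an array, taken as its 90th minus its 50th percentile, ranged from 2.43 to 3.69, and 3 arrays stood apart from their group on it.

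In vehicle arrays several tissue isoforms of complex IV had signals that seldom rose above the array median. Cox7b2 was above its array's median on 0 of 40 vehicle arrays in each cell type, and Cox6b2 on 4 in osteoblasts, 2 in lining cells and 4 in osteocytes. Cox8b, an isoform of heart and skeletal muscle, was above it on 6, 8 and 3 arrays, and Cox7a1, also a muscle isoform, on 5, 6 and 13. After the filter on low values, 84 members were tested in osteoblasts and in lining cells and 83 in osteocytes. Cox6c-ps1 and Cox7b2 did not pass in any of these fits, nor Ndufaf4 in osteocytes.

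On day 8, respiratory chain genes were higher in antibody-treated than in vehicle osteoblasts across complexes I, III, IV and V. Of 84 members, 20 (23.8%) were higher in treated than in vehicle osteoblasts and 0 were lower. Of all 11415 genes tested 3.64% were called, and 2.52% were called higher (limma, Benjamini-Hochberg adjusted p under 0.05). Differences were above 0 for 81 of 84 members. The median difference was 0.39 on the log2 scale, against 0.02 over all genes tested. The mean signal of the members was 7.35 ± 0.12 (SD, n = 5) with vehicle, 7.65 ± 0.30 (n = 4) at 3 mg/kg and 7.82 ± 0.09 (n = 5) at 50 mg/kg. Vehicle arrays ran from 7.22 to 7.49 and those at 50 mg/kg from 7.69 to 7.94, without overlap. The spread of signal was nearly equal in the 3 groups (3.48, 3.54 and 3.52).

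**Figure D1:**
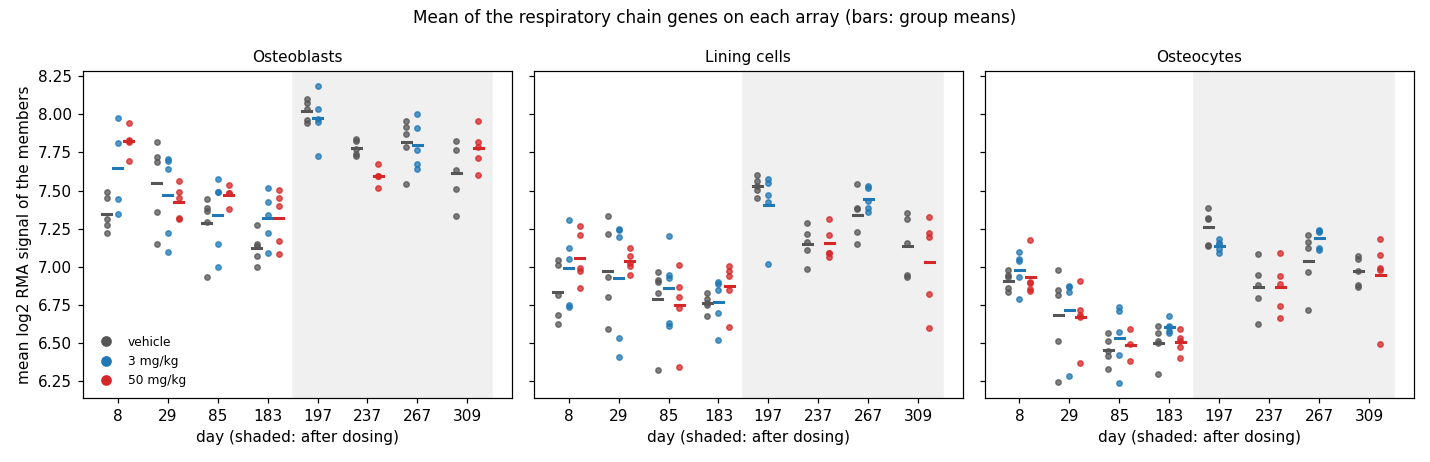
Mean log2 RMA signal of the respiratory chain genes (y axis) by day (x axis) in osteoblasts, lining cells and osteocytes. Each point is 1 array, bars are group means, and the shaded days follow the end of dosing. On day 8 in osteoblasts the 50 mg/kg arrays (7.69 to 7.94) lie above the vehicle arrays (7.22 to 7.49), and vehicle means are highest on day 197 in each cell type (8.02, 7.53 and 7.26).

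In complex I, 7 of 34 members rose in osteoblasts on day 8 and the median difference was 0.40. Ndufa12, an accessory subunit of the peripheral arm, rose most. Its signals were 8.32, 8.67, 8.89, 8.94 and 9.0 with vehicle, 9.05, 9.13, 10.01 and 10.33 at 3 mg/kg, and 9.56, 9.69, 9.96, 10.01 and 10.14 at 50 mg/kg. All 9 treated arrays lay above all 5 vehicle arrays, and the 3 mg/kg group fell into a lower and a higher pair. The difference was 0.99 ± 0.17 (SE), a fold of 1.98, with an adjusted p of 0.000286. Ndufa9, another accessory subunit of that arm, gave 8.61, 8.65, 8.74, 8.79 and 8.8 with vehicle, 8.92, 8.96, 9.3 and 9.46 at 3 mg/kg, and 9.3, 9.31, 9.38, 9.4 and 9.41 at 50 mg/kg. These groups did not overlap either, and the difference was 0.54 ± 0.14 (adjusted p = 0.0146). Called members here and below were picked on the arrays shown, so little overlap is partly built in. Overlap was not counted over all genes. The other risers were the membrane-arm accessory subunits Ndufb2 (0.54), Ndufb4 (0.59) and Ndufb6 (0.58), and the accessory subunits Ndufa7 (0.49) and Ndufs6 (0.43). None of the 6 core subunits passed the threshold; the differences were 0.38 for Ndufs1, 0.40 for Ndufv1 and 0.54 for Ndufs8 (adjusted p = 0.278, 0.12 and 0.0839). Of the 6 assembly factors only Ndufaf3 did (0.43, adjusted p = 0.02).

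Complex II had no member past the threshold on day 8. Sdhb, its iron-sulfur subunit, had signals of 5.16, 5.5, 5.57, 5.6 and 5.85 with vehicle, 5.48, 5.61, 6.04 and 6.08 at 3 mg/kg, and 5.52, 5.87, 5.96, 5.97 and 6.16 at 50 mg/kg. The groups overlapped, and the difference was 0.32 ± 0.16 (adjusted p = 0.305). Sdha, the flavoprotein subunit, differed by 0.08 ± 0.15, and the membrane anchors Sdhc and Sdhd by 0.24 ± 0.15 and 0.18 ± 0.17. In complex III, 3 of 7 members rose (median 0.43). Uqcrc1, a core protein of the complex, had 6.82, 7.43, 7.62, 7.91 and 8.21 with vehicle, 7.73, 8.22, 8.34 and 8.54 at 3 mg/kg, and 8.3, 8.37, 8.43, 8.68 and 8.72 at 50 mg/kg. The 50 mg/kg arrays all lay above vehicle, and the difference was 0.75 ± 0.19 (adjusted p = 0.0147). The small subunits Uqcr11 (0.64) and Uqcrh (0.43) rose too.

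In complex IV, 4 of 17 tested members rose (median 0.30), all of them ubiquitous subunits. Cox5b had signals of 9.4, 9.54, 9.69, 10.03 and 10.13 with vehicle, 9.94, 10.13, 10.92 and 11.19 at 3 mg/kg, and 10.41, 10.42, 10.51, 10.78 and 10.92 at 50 mg/kg. Every 50 mg/kg array was above vehicle, while 3 mg/kg overlapped it. The difference was 0.82 ± 0.15 (adjusted p = 0.000624). Cox7b had 7.87, 8.02, 8.02, 8.3 and 8.53 with vehicle, 8.01, 8.44, 9.18 and 9.31 at 3 mg/kg, and 8.86, 9.12, 9.2, 9.22 and 9.24 at 50 mg/kg, a difference of 0.78 ± 0.18 (adjusted p = 0.00628). Cox4i1, the ubiquitous form of subunit 4, had 8.33, 8.38, 8.63, 8.83 and 8.9 with vehicle, 8.65, 8.75, 9.21 and 9.36 at 3 mg/kg, and 8.82, 9.06, 9.25, 9.36 and 9.43 at 50 mg/kg. Its groups overlapped slightly, with a difference of 0.48 ± 0.12 (adjusted p = 0.0146). Cox6b1 (0.59) was the other. Cox6a2, Cox6b2 and Ndufa4l2 were the 3 members with differences below 0 (-0.19, -0.07 and -0.01), and none passed the threshold.

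In complex V, 5 of 16 members rose (median 0.45), among them 3 of the F1 sector that makes ATP. Atp5f1b, the catalytic beta subunit, had signals of 10.68, 10.93, 10.96, 11.23 and 11.4 with vehicle, 11.24, 11.43, 11.7 and 11.76 at 3 mg/kg, and 11.41, 11.6, 11.61, 11.77 and 11.94 at 50 mg/kg. The 50 mg/kg arrays all stood above vehicle, and the difference was 0.56 ± 0.13 (adjusted p = 0.00475). Atp5f1d (0.74) and Atp5f1a (0.45), the delta and alpha subunits of F1, rose, as did Atp5mpl (0.58) and Atp5po (0.39). The inhibitor of the synthase, Atp5if1, differed by 0.52 ± 0.17 and did not pass (adjusted p = 0.0634).

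**Figure D2:**
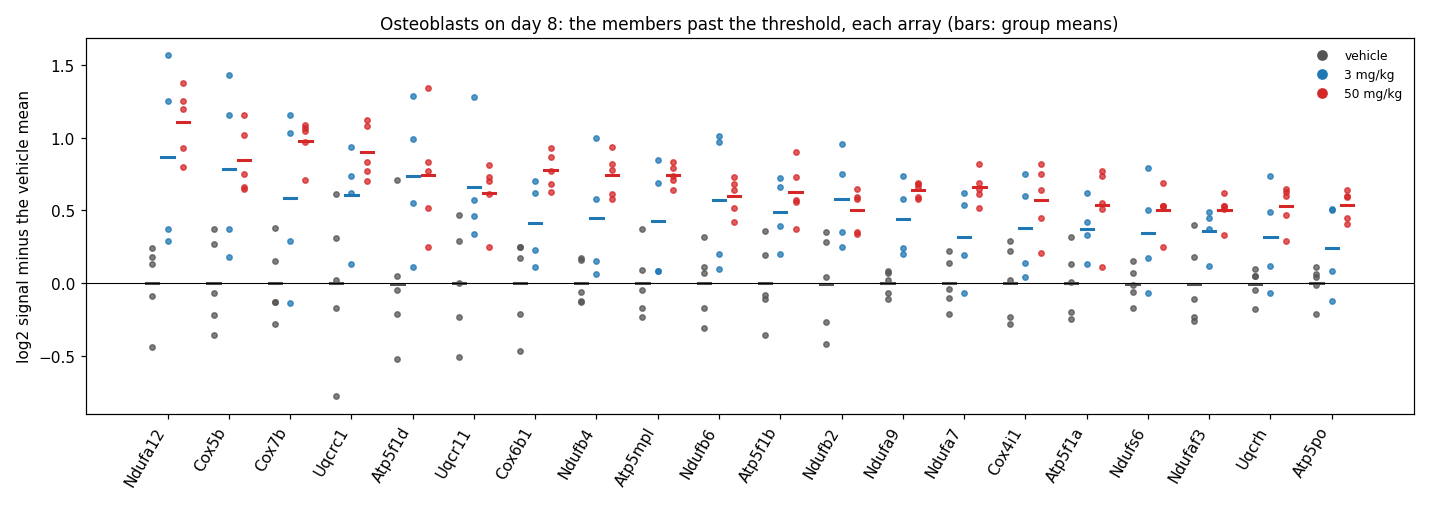
Log2 RMA signal minus the vehicle mean (y axis) for the 20 members past the threshold in osteoblasts on day 8 (x axis). Points are single arrays and bars group means, in gray for vehicle, blue for 3 mg/kg and red for 50 mg/kg. Ndufa12 and Ndufa9 are the 2 genes whose treated arrays all lie above every vehicle array. The 20 genes were called on these same arrays, so separation is partly built in, and it was not counted over all genes.

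The day 8 count varied with the arrays used. It was 7 without vehicle replicate 3, 9 without vehicle replicate 5 or 3 mg/kg replicate 2, 10 without 3 mg/kg replicate 4, 31 without 3 mg/kg replicate 1 and 33 without 3 mg/kg replicate 3, and 2 when only the groups of that day were fitted. The number of all genes called moved with it. Of 11415 genes, 415 were called in the main fit and 56 with that day's groups alone. Over all genes 138 were called without vehicle replicate 3 and 206 without vehicle replicate 5. Without 3 mg/kg replicates 1, 2, 3 and 4, 611, 188, 603 and 153 genes were called. Ndufa12 passed under all 20 of the alternatives and single-array omissions tried, and Cox5b under 19. Erythroid markers moved with the family: 5 of 9 tested were higher with antibody (Ahsp 0.52, Alas2 0.74, Car1 1.42, Gata1 0.80 and Klf1 0.80). Their summed signal was 13.15 to 13.37 with vehicle, 13.21 to 13.96 at 3 mg/kg and 13.65 to 14.21 at 50 mg/kg, with all 9 on the array above its median. Their part in the result was not tested.

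Other mitochondrial and glycolytic genes were counted beside the family on day 8. On that day 2.52% of all genes were called higher, and the median over all genes was 0.02. Assembly factors of the complexes had 4 of 39 higher (Coa3, Fmc1, Stmp1 and Uqcc2) with a median difference of 0.14. Electron carriers and entry enzymes had 1 of 14 higher, Cyc1, which encodes cytochrome c1 of complex III (list median 0.26). Carriers of adenine nucleotides and phosphate had 1 of 9, Ucp2 (0.31), and the tricarboxylic acid cycle with pyruvate dehydrogenase 1 of 13, malate dehydrogenase Mdh2 (0.32). Regulators of mitochondrial biogenesis had 0 of 16 and glycolysis 0 of 16, the latter with a median of 0.24. No list had a member that fell.

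On day 29 the family in osteoblasts leaned lower, as did the genes called in general, at a share below its background. Antibody changed 5 of 84 members (5.95%), against 15% of all genes, with 4 lower and 1 higher. Of all 1713 genes called, 1411 were lower and 302 higher, so the direction was not particular to the family. The median was -0.10 against -0.05 over all genes. Complex II had the lowest median of the complexes (-0.40). Sdha had 7.13, 7.2, 7.39, 7.41 and 7.43 with vehicle, 6.09, 6.77, 6.8, 7.34 and 7.4 at 3 mg/kg, and 6.49, 6.55, 6.62, 6.69 and 6.78 at 50 mg/kg. All 50 mg/kg arrays lay below vehicle, and the 3 mg/kg arrays were divided. Sdha fell by 0.56 ± 0.15 on the log2 scale (adjusted p = 0.00662). Atp5pb, subunit b of the peripheral stalk of ATP synthase, had 6.77, 6.77, 7.26, 7.41 and 7.52 with vehicle, 5.69, 6.55, 6.92, 7.32 and 7.57 at 3 mg/kg, and 5.8, 5.96, 6.23, 6.56 and 6.76 at 50 mg/kg. The pattern was the same, and it fell by 0.61 ± 0.20 (adjusted p = 0.0277).

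Uqcrc2, a core protein of complex III, fell by 0.48 and Atp5f1b fell by 0.40 on that day. Cox7a1 was the 1 member that rose (0.37, adjusted p = 0.0479), from 2.69, 2.72, 2.72, 2.95 and 2.96 with vehicle to 2.95, 3.02, 3.06, 3.2 and 3.61 at 3 mg/kg and 2.87, 2.94, 3.32, 3.41 and 3.41 at 50 mg/kg. These are low signals, below or near the array median of 3.43 to 3.72 in osteoblasts. The spread of signal also moved on day 29, from 3.53 with vehicle to 3.41 and 3.16 with rising dose. With it as a covariate 0 members were called, and with the groups of that day alone 1. Over all genes these fits called 191 and 1028, against 1713 in the main fit. Single-array omissions gave 1 (vehicle replicates 1 and 2, 3 mg/kg replicate 2), 3 (vehicle replicate 5, 50 mg/kg replicates 4 and 5), 9 (50 mg/kg replicate 3), 10 and 11 (3 mg/kg replicates 1 and 4) and 12 (vehicle replicate 4). Over these omissions the number of all genes called ran from 687 (vehicle replicate 2) to 2222 (3 mg/kg replicate 4). Beside the family, and with the same 15% of all genes called, 6 of 39 assembly factors fell (Coa5, Cox15, Dmac1, Sdhaf4, Surf1 and Tmem126b) and 4 of 16 biogenesis genes fell (Gabpb1, Polg2, Ssbp1 and Tfam). Osteoblast markers were higher with antibody for 3 of 6 and osteoclast markers lower for 2 of 4, and their part in the result was not tested.

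By day 85 no member differed in osteoblasts (0 of 84, with 1.76% of all genes called). At an unadjusted p under 0.05 there were 9, and the median was 0.10 against 0.03. On day 183, 5 members were higher and 0 lower (5.95%, against 3.29% of all genes), with a median of 0.16 against 0.06. Of all genes called, 259 were higher and 116 lower. Atp5pb had 4.46, 4.72, 4.83, 5.19 and 5.27 with vehicle, 5.13, 5.21, 5.54, 5.57 and 5.78 at 3 mg/kg, and 5.33, 5.74, 5.96, 6.21 and 6.35 at 50 mg/kg. Only the 50 mg/kg arrays cleared vehicle fully, and the difference was 0.79 ± 0.20 (adjusted p = 0.0129). Cox5a, a ubiquitous complex IV subunit, had 5.34, 5.57, 6.19, 6.24 and 6.59 with vehicle, 6.07, 6.52, 6.63, 6.73 and 6.91 at 3 mg/kg, and 6.34, 6.53, 6.78, 6.85 and 6.87 at 50 mg/kg. These groups overlapped (0.64 ± 0.18, adjusted p = 0.0305). The complex I members Ndufa6 and Ndufab1, the latter also the mitochondrial acyl carrier protein, rose by 0.57 each, and the assembly factor Ndufaf5 by 0.52. The spread of signal was 2.68, 2.83 and 2.88 in the vehicle, 3 and 50 mg/kg groups. The count was 0 with it as a covariate, 3 with that day's groups alone, and 0 to 8 when an array was left out (0 without vehicle replicate 1, 1 without vehicle replicate 2 or 3 or 50 mg/kg replicate 4, 8 without vehicle replicate 5). It was 2 without 3 mg/kg replicate 4 or 5 or 50 mg/kg replicate 3, and 3 without vehicle replicate 4, 3 mg/kg replicate 3 or 50 mg/kg replicate 2. Over all genes 375 were called in the main fit, 201 with the covariate and 106 with that day's groups alone. Over these omissions that number ran from 131 (vehicle replicate 2) to 411 (vehicle replicate 5). Beside the family, osteoclast markers were higher for 2 of 4 and granulocyte markers for 3 of 7, and their part was not tested.

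The change of the osteoblast response across the 4 dosing days was tested directly. It differed between days for 22 of 84 members (26.2%), against 17.7% of all genes: 7 in complex I, 1 assembly factor, 3 of 4 in complex II, 2 in complex III, 5 in complex IV and 4 in complex V. Atp5f1b had the smallest adjusted p (0.000729), with differences of 0.56, -0.40, 0.10 and 0.33 on days 8, 29, 85 and 183. For Ndufa12 these were 0.99, -0.25, 0.00 and 0.15 (adjusted p = 0.00119). For Atp5pb they were 0.39, -0.61, 0.37 and 0.79 (adjusted p = 0.00216), and for Cox5b 0.82, 0.08, -0.11 and 0.02 (adjusted p = 0.00459). The count was 5 with the spread of signal as a covariate and 13 with the dosing-day groups alone. It was 7 without vehicle replicate 2 of day 29, 36 without vehicle replicate 4, 10 without vehicle replicate 1 or 5 and 12 without 3 mg/kg replicate 2, all of day 29. Over all genes 2024 were called in the main fit, 293 with the covariate and 1496 with the dosing-day groups alone. Without vehicle replicates 2 and 4 of day 29, 1156 and 2330 genes were called. The 2 doses, averaged over the dosing days, differed for 0 of 84 members in osteoblasts (2.53% of all genes). The unadjusted count was 4, and 66 of 84 differences lay above 0 with a median of 0.07.

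**Figure D3:**
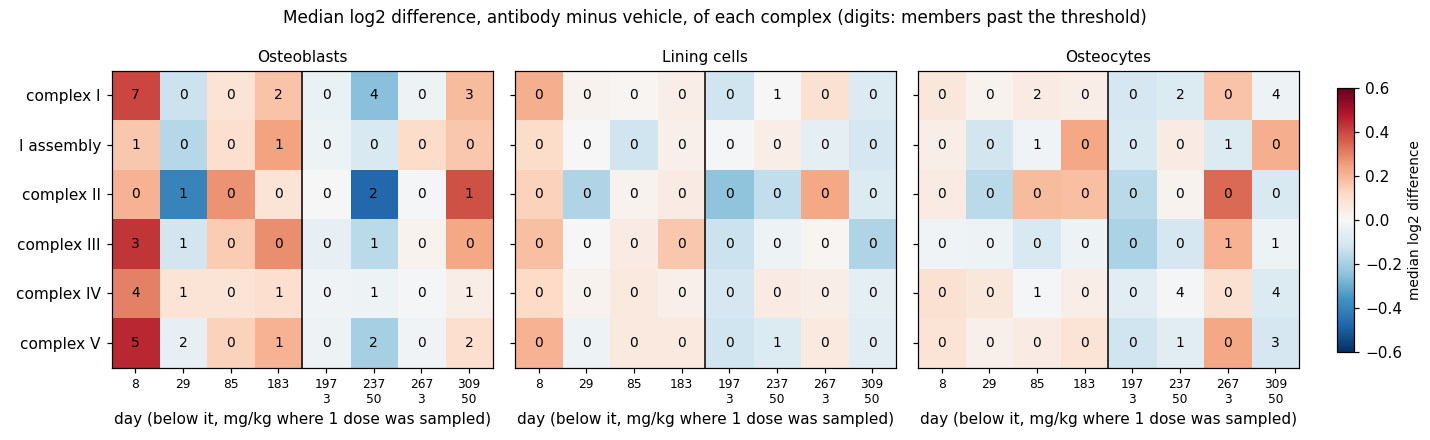
Median log2 difference, antibody minus vehicle, of the tested members of each complex (rows) on each day (columns), for osteoblasts, lining cells and osteocytes; red is higher and blue lower with antibody. The number in each cell is how many members passed the threshold, and the days right of each line follow the end of dosing, when 1 dose was sampled. On day 8 in osteoblasts all 6 rows are above 0, from 0.16 to 0.45.

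After dosing stopped, the 3 mg/kg groups showed no member past the threshold in osteoblasts. On day 197 the count was 0 of 84 (0.0788% of all genes; 5 members at an unadjusted p under 0.05). On day 267 it was also 0, as for all genes (0% by limma; 2 members and 388 genes at an unadjusted p under 0.05). At 50 mg/kg the share of members called was near that of all genes on both days. On day 237, 10 of 84 members were lower and 0 higher (11.9%, against 10.7% of all genes), with a median of -0.16 against -0.04. Of all genes called, 879 were lower and 343 higher. The 10 members were 4 in complex I, 2 of the 4 in complex II, 1 each in complexes III and IV, and 2 in complex V.

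Ndufb4 had signals of 8.76, 8.92, 9.02, 9.06 and 9.24 with vehicle and 7.75, 8.15, 8.3 and 8.37 at 50 mg/kg on day 237. The groups did not overlap, and Ndufb4 fell by 0.86 ± 0.22 (adjusted p = 0.00699). Cox7a2l, which takes part in assembling supercomplexes, had 9.39, 9.51, 9.63, 9.75 and 9.91 against 8.82, 8.83, 8.84 and 9.09, and fell by 0.74 ± 0.22 (adjusted p = 0.0177). Sdha had 6.83, 7.24, 7.31, 7.31 and 7.36 against 6.05, 6.59, 6.64 and 6.67, and fell by 0.72 ± 0.18 (adjusted p = 0.00499). The 10 genes were called on these same arrays, so little overlap is built in, and overlap was not counted over all genes. Each treated array was below each vehicle array for 9 of the 10 genes, Ndufb1 being the exception. The others were Ndufb9 (-0.73), Atp5mk (-0.68), Uqcr10 (-0.65), Atp5mc3 of the proton-driven ring of ATP synthase (-0.64), Sdhb (-0.58) and Ndufb5 (-0.51). The spread of signal was 3.44 with vehicle and 3.22 at 50 mg/kg. With it as a covariate 4 members passed, 3 of them higher, and with quantile normalization 6, all lower. Leaving out vehicle replicate 4 or 50 mg/kg replicate 1 gave 5, and leaving out 50 mg/kg replicate 3 gave 6. Over all genes 1222 were called in the main fit, 463 with the covariate and 1003 with quantile normalization. The omissions gave 686, 694 and 744 of all genes in that order. Granulocyte markers were higher for 2 of 7 and osteoblast markers were higher for 1 and lower for 1 of 6, and their part was not tested.

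On day 309, 6 members were higher and 1 lower at 50 mg/kg (8.33%, against 10.5% of all genes), with a median of 0.17 against 0.10. Of all genes called, 985 were higher and 218 lower. Atp5pb had 5.99, 6.52, 6.86, 6.9 and 7.15 with vehicle and 7.19, 7.28, 7.37, 7.9 and 7.94 at 50 mg/kg, without overlap (0.85 ± 0.23, adjusted p = 0.0115). Ndufs1, a core iron-sulfur subunit of complex I, had 5.2, 5.42, 5.5, 5.88 and 5.96 against 6.17, 6.21, 6.28, 6.46 and 6.67, also without overlap (0.77 ± 0.21, adjusted p = 0.0134). Cox7a2l had 8.47, 8.5, 9.08, 9.2 and 9.26 against 9.0, 9.23, 9.79, 9.79 and 9.82, which overlapped (0.63 ± 0.20, adjusted p = 0.0348). Atp5f1c, the gamma subunit of F1, rose by 0.74, Sdhb by 0.60 and Ndufb9 by 0.59, and Ndufb8 fell by 0.45. Cox7a2l, Sdhb and Ndufb9 were called on both days, lower on day 237 and higher on day 309, each against that day's own vehicle rats, and the difference between the days was not tested.

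The day 309 count depended on single arrays and on the fit. It was 0 without vehicle replicate 3 or 50 mg/kg replicate 3, 2 without vehicle replicate 4, 3 and 4 without 50 mg/kg replicates 2 and 1, 11 without vehicle replicate 1, and 14 when 50 mg/kg replicate 4 was left out. It was 0 with the spread of signal (3.08 with vehicle, 3.41 at 50 mg/kg) as a covariate, 0 with that day's groups alone, and 2, both lower, with quantile normalization. The calls over all genes moved too, from 1203 of 11415 to 0 with the covariate. They were 8 with that day's groups alone and 575 with quantile normalization. Without vehicle replicates 1 and 3, 1833 and 143 of all genes were called. Of the related lists, with 10.5% of all genes called, 4 of 13 tricarboxylic acid cycle genes rose (Pdha1, Pdhb, Sucla2 and Suclg1), as did 3 of 16 biogenesis genes (Slirp, Ssbp1 and Tfam) and the outer-membrane channels Vdac1, Vdac2 and Vdac3. Osteoclast markers were higher for 2 of 4 and osteoblast markers for 1 of 6, and their part was not tested.

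In lining cells, flat cells on bone surfaces that are not forming bone, no member passed the threshold on a dosing day. The shares of all genes called were also small: 0.31% on day 8, 0.0431% on day 29, 0.0776% on day 85 and 0.0517% on day 183. At an unadjusted p under 0.05 (limma) there were 11, 4, 3 and 3 members on these days. On day 8, 75 of 84 members lay above 0, with a median of 0.20 against 0.00 over all genes. Ndufa12 in lining cells had 8.12, 8.15, 8.21, 8.45 and 8.69 with vehicle, 8.22, 8.52, 8.93, 8.94 and 9.43 at 3 mg/kg, and 8.58, 8.87, 9.03, 9.41 and 9.61 at 50 mg/kg. These groups overlapped, and the difference was 0.63 ± 0.21. The member mean was 6.84 ± 0.19 with vehicle, 6.99 ± 0.25 with 3 mg/kg and 7.06 ± 0.17 with 50 mg/kg (n = 5 each). Doses differed for 0 of 84 members (0.647% of all genes; 11 unadjusted), and the response differed between dosing days for 0 of 84 (0.0431%; 4 unadjusted).

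After dosing, lining cells had 0 members past the threshold on days 197 (0.0603% of all genes), 267 (1.08%) and 309 (0.405%), with 3, 12 and 10 at an unadjusted p under 0.05 (limma). On day 237, 2 were higher at 50 mg/kg (2.38%, against 1.45% of all genes). Atp5if1, the inhibitor protein of ATP synthase, had 9.14, 9.19, 9.37, 9.81 and 9.83 with vehicle and 9.95, 10.13, 10.13, 10.25 and 10.49 at 50 mg/kg, without overlap (0.73 ± 0.19, adjusted p = 0.0257). Ndufb8 had 3.0, 3.08, 3.1, 3.26 and 3.3 against 3.5, 3.62, 3.63, 3.78 and 3.78, without overlap (0.51 ± 0.13, adjusted p = 0.0197). Its vehicle signals lie about the array median of 3.14 to 3.36. The count was 0 without vehicle replicate 2, and 1 without vehicle replicate 4 or 50 mg/kg replicate 2, 3 or 4. It was 4, all higher, with the spread of signal as a covariate, and 1 with probe sets averaged or with that day's groups alone. Over all genes 168 were called in the main fit and 82 without vehicle replicate 2. The covariate gave 184 of all genes, averaged probe sets 107 and that day's groups alone 145. Atp5if1, which has 3 probe sets, passed in 11 of 16 alternatives and single-array omissions. Over these its difference ran from 0.26 to 0.815, with an adjusted p (limma) of up to 0.189. Adipocyte markers were lower for 3 of 6 on that day, and their part was not tested.

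In osteocytes, the cells buried in bone matrix that secrete sclerostin, few members passed the threshold during dosing, and Cox4i2 had the largest difference. On days 8, 29 and 183, 0 of 83 members passed, with 0.287%, 0.211% and 2.06% of all genes called and 2, 7 and 5 members at an unadjusted p under 0.05 (limma). On day 85, 4 were higher (4.82%, against 6.3% of all genes). Medians stayed between 0.02 and 0.07 on the 4 days. The response differed between dosing days for 0 of 83 members (0.767% of all genes; 10 unadjusted).

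Cox4i2 encodes the alternative form of complex IV subunit 4, known from lung and linked to low oxygen. On day 85 its signals in osteocytes were 2.56, 2.84, 3.24, 3.26 and 3.57 with vehicle, 2.86, 3.08, 3.18, 3.47 and 4.24 at 3 mg/kg, and 4.31, 4.67 and 4.96 at 50 mg/kg. All 3 arrays at 50 mg/kg stood above every other array of that day. Treated arrays exceeded vehicle by 0.92 ± 0.21 (adjusted p = 0.0024), by 0.28 at 3 mg/kg and 1.56 at 50 mg/kg. With that day's groups alone the same difference did not pass (adjusted p = 0.146).

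On the other dosing days the mean at 50 mg/kg was also above vehicle. On day 29, Cox4i2 had 2.86, 2.91, 3.08, 3.15 and 3.27 with vehicle, 3.04, 3.1, 3.13 and 3.26 at 3 mg/kg, and 3.21, 3.48, 4.27, 4.64 and 4.66 at 50 mg/kg. On day 8 the vehicle arrays had 2.9, 2.91, 2.96, 3.17 and 3.23, those at 3 mg/kg 2.89, 3.02, 3.07, 3.14 and 3.15, and those at 50 mg/kg 3.11, 3.25, 3.42, 3.62 and 3.77. On day 183 vehicle had 3.08, 3.2, 3.2, 3.24 and 3.52, 3 mg/kg 2.77, 3.07, 3.26, 3.3 and 3.79, and 50 mg/kg 3.28, 3.31, 3.36, 3.69 and 3.84. On these 3 days the 50 mg/kg arrays overlapped vehicle, and both doses together did not pass (differences 0.54, 0.21 and 0.12; adjusted p = 0.304, 0.91 and 0.887). Over the 4 dosing days, 50 mg/kg exceeded 3 mg/kg by 0.71 ± 0.12 (adjusted p = 4.79e-06).

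The 50 mg/kg difference in Cox4i2 was also seen after dosing stopped. On day 237 vehicle had 2.97, 3.08, 3.21, 3.56 and 3.66, and 50 mg/kg had 3.93, 4.39, 4.45, 4.54 and 5.94. The groups did not overlap, and the difference was 1.35 ± 0.23, a fold of 2.55 (adjusted p = 5.48e-06). Without the highest array (50 mg/kg replicate 5) it was 1.03. On day 309 vehicle had 2.73, 2.94, 3.01, 3.03 and 3.37 and 50 mg/kg 2.8, 2.85, 3.53, 3.61 and 4.42, which overlapped (0.43 ± 0.23, adjusted p = 0.194). At 3 mg/kg, day 197 gave 2.83, 3.11, 3.17, 3.27 and 3.45 with vehicle and 2.92, 3.01, 3.02, 3.13 and 3.19 with antibody. Day 267 gave 2.76, 2.96, 3.06, 3.12 and 3.13 with vehicle and 2.72, 2.83, 3.06, 3.06 and 3.12 with antibody. Neither passed the threshold (-0.11 and -0.05; adjusted p = 0.874 and 0.953).

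Cox4i2 was the 1 of 85 members whose response to antibody, averaged over both doses and the 4 dosing days, differed between the 3 cell types (1.18%, against 3.29% of all genes; adjusted p = 0.000491, 7 members at an unadjusted p under 0.05). This test treated arrays as independent, although the same rats gave all 3 cell types. Cox4i2 passed in all 23 alternatives tried, 5 other settings and 18 single-array omissions, with a highest adjusted p (limma) of 0.00125. The omissions took in only osteocyte arrays of the higher dose on dosing days. Whether the Cox4i2 result depended on any other single array was not tested. Against 0.21, 0.54, 0.92 and 0.12 in osteocytes on days 8, 29, 85 and 183, the treated minus vehicle difference was 0.08, 0.23, 0.08 and -0.25 in osteoblasts. In lining cells it was -0.09, -0.05, -0.11 and -0.05. Its vehicle signals were low: above the array median on 29 of 40 osteocyte arrays, 21 of 40 lining cell arrays and 6 of 40 osteoblast arrays.

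**Figure D4:**
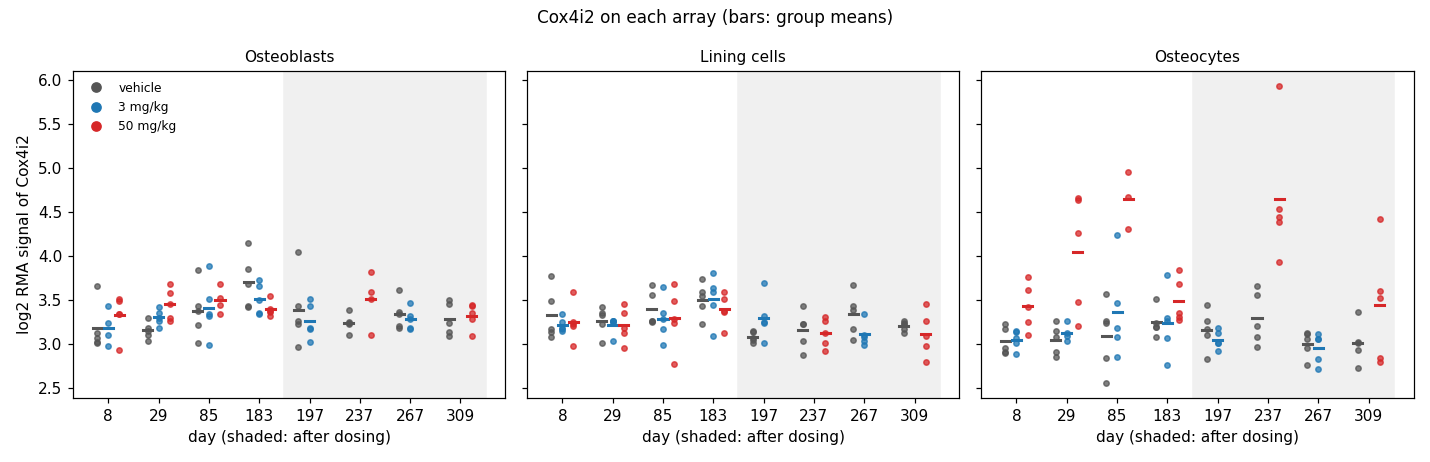
Log2 RMA signal of Cox4i2 (y axis) by day (x axis) in osteoblasts, lining cells and osteocytes. Points are single arrays, bars are group means and shaded days follow the end of dosing. In osteocytes the 50 mg/kg arrays reach 4.66 on day 29, 4.96 on day 85 and 5.94 on day 237, while vehicle arrays stay at or below 3.66.

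Other values moved with Cox4i2 in osteocytes. Osteocyte markers summed to 12.11 to 13.07 with vehicle, 12.56 to 13.33 at 3 mg/kg and 14.14 to 14.21 at 50 mg/kg on day 85 (2 of 5 higher, Mepe and Pdpn), and to 10.0 to 12.57 against 13.56 to 13.98 on day 237 (4 of 5 higher). Endothelial markers summed to 7.31 to 7.98, 7.49 to 7.93 and 8.28 to 8.95 on day 85 (3 of 7 higher: Egfl7, Emcn and Tek). On day 237 they summed to 7.36 to 8.14 against 8.07 to 8.82 (5 of 7 higher). With vehicle on day 85 Pecam1 and Kdr were at or below the array median, and at 50 mg/kg all 7 were above it. Of 16 glycolysis genes tested, 5 rose on day 85 (with 6.3% of all genes called), namely aldolase Aldoc (1.44) and Aldoa (0.79), the glucose transporter Slc2a1 (1.03), Tpi1 (0.92) and Ldha (0.66). On day 237, 2 of 16 rose, Aldoc by 2.32 and Slc2a1 by 0.87, and 1 fell, Gpi (with 13.2% of all genes called). The part of these in the Cox4i2 result was not tested.

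The other 3 members higher in osteocytes on day 85 were less regular. Ndufaf8, an assembly factor of complex I, had 5.1, 5.1, 5.17, 5.23 and 5.42 with vehicle, 4.98, 5.37, 5.4, 5.92 and 5.97 at 3 mg/kg, and 5.86, 6.05 and 6.49 at 50 mg/kg (0.62, adjusted p = 0.0405). The 50 mg/kg arrays were above vehicle and the 3 mg/kg arrays straddled it. Ndufc1, an accessory subunit, had 3.26, 4.41, 4.55, 4.58 and 5.01 with vehicle, 4.78, 4.83, 4.96, 5.32 and 5.81 at 3 mg/kg, and 4.37, 4.48 and 5.56 at 50 mg/kg (0.61, adjusted p = 0.0397). Here 1 vehicle array was low and both doses overlapped vehicle. Ndufa5 differed by 0.32. The count was 1 without vehicle replicate 5, 3 mg/kg replicate 5 or 50 mg/kg replicate 1, 2 without vehicle replicate 2 or 3 mg/kg replicate 1 or 2, 0 with that day's groups alone, and 7 (3 higher, 4 lower) with quantile normalization. Over all genes 747 were called in the main fit, 31 with that day's groups alone and 1068 with quantile normalization.

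The doses differed in osteocytes for 9 of 83 members (10.8%, against 15% of all genes), 1 higher and 8 lower at 50 than at 3 mg/kg. The 1 was Cox4i2. The lower ones were Uqcrc1 (-0.34), Ndufa4 (-0.33), Cox5a (-0.31), Ndufa12 (-0.28), Cox5b (-0.27), Uqcrq (-0.27), Ndufv1 (-0.26) and Ndufa3 (-0.24), from complexes I, III and IV. The adjusted p ran from 0.00295 for Uqcrq to 0.0404 for Uqcrc1 and Ndufa3. The median over members was -0.08 against -0.01. With the dosing-day groups alone the count was 5, and 5 without 50 mg/kg replicate 3 of day 85 (1 higher and 4 lower in each case). Over all genes 1774 were called in the main fit, and 1692 and 1579 in these refits in that order. Beside the members, osteocyte markers were higher at the high dose for 4 of 5, endothelial markers were higher for 4 of 7, and granulocyte markers were lower for 5 of 7, and their part was not tested.

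After dosing, osteocytes had 0 of 83 members past the threshold on day 197 at 3 mg/kg (1.11% of all genes; 9 unadjusted). On day 267 Uqcr10 of complex III was higher (0.51) and the assembly factor Ndufaf1 lower (-0.39), 2.41% of members against 3.63% of all genes. That count was 0 with quantile normalization or the spread of signal as a covariate. It was 0 without vehicle replicate 5 or 3 mg/kg replicate 1, 2, 3 or 5, 1 without vehicle replicate 1, 3 or 4 or 3 mg/kg replicate 4, and 4 without vehicle replicate 2. Over all genes 431 were called in the main fit, 129 with quantile normalization, 131 with the covariate and 151 without vehicle replicate 5.

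On day 237 at 50 mg/kg, 4 osteocyte members were higher and 3 lower (8.43%, against 13.2% of all genes; median -0.05 against -0.01). Beside Cox4i2, Cox6a2, the heart and skeletal muscle form of subunit 6a, had 3.17, 3.41, 3.46, 3.52 and 3.8 with vehicle and 3.78, 3.92, 4.03, 4.15 and 4.93 at 50 mg/kg (0.69 ± 0.21, adjusted p = 0.0193), with the lowest treated array just inside the vehicle range. Ndufa6 (0.54) and Ndufa4l2, a relative of Ndufa4 induced in low oxygen (0.43), rose. Atp5f1b had 11.4, 11.49, 11.53, 11.67 and 11.88 against 10.72, 10.89, 10.9, 11.24 and 11.44, and fell by 0.56 ± 0.15 (adjusted p = 0.00578). Cox4i1 had 8.35, 8.36, 8.42, 8.42 and 8.71 against 7.91, 8.0, 8.04, 8.16 and 8.19, without overlap, and fell by 0.39 ± 0.14 (adjusted p = 0.0498). The Cox4i1 call was lost in 13 of the 16 alternatives and single-array omissions tried (adjusted p up to 0.142), while Cox4i2 passed in all 16. Ndufs4 fell by 0.35 from vehicle signals near the array median.

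The day 237 count in osteocytes was 2 without 50 mg/kg replicate 5, 4 without vehicle replicate 1, 3 or 4 or 50 mg/kg replicate 3, and 1 with that day's groups alone. Over all genes 1566 were called in the main fit, 1197 without 50 mg/kg replicate 5 and 771 with that day's groups alone. Erythroid markers were lower for 6 of 9, summing to 13.12 to 14.06 with vehicle and 12.72 to 13.2 at 50 mg/kg. Of 11 skeletal muscle markers tested 1 was higher (Myh1). They summed to 8.02 to 8.57 and 8.77 to 9.54, with Acta1, Actn3 and Mb at or below the array median in both groups. Their part was not tested.

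On day 309, 5 members were higher and 7 lower in osteocytes (14.5%, against 16.4% of all genes; median -0.03 against -0.01). Ndufs8, a core iron-sulfur subunit of complex I, had 3.95, 3.99, 4.18, 4.84 and 4.85 with vehicle and 3.76, 5.22, 5.52, 5.57 and 5.98 at 50 mg/kg, with 1 treated array below all vehicle arrays and 4 above (0.85 ± 0.26, adjusted p = 0.0158). Cox6a2 had 3.12, 3.14, 3.29, 3.35 and 3.46 against 3.47, 3.59, 4.25, 4.38 and 4.85, without overlap (0.84 ± 0.21, adjusted p = 0.00355). Ndufv1 (0.50), Ndufb8 (0.39) and Cox6b1 (0.34) rose as well. Atp5pb had 6.5, 6.57, 6.68, 6.71 and 7.17 against 5.17, 5.68, 5.86, 5.88 and 6.65, and fell by 0.88 ± 0.24 (adjusted p = 0.00683). Cox7a2l had 8.83, 9.07, 9.2, 9.21 and 9.25 against 7.91, 8.32, 8.38, 8.6 and 8.72, without overlap, and fell by 0.73 ± 0.21 (adjusted p = 0.00915). Atp5mk (-0.65), Uqcrfs1, the Rieske iron-sulfur protein of complex III (-0.52), Cox6c (-0.51), Ndufs4 (-0.46) and Atp5mc3 (-0.45) were the other lower ones.

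Atp5pb and Cox7a2l were higher in osteoblasts and lower in osteocytes on day 309, a contrast that was not tested. Skeletal muscle markers moved with this day's osteocyte result: 8 of 11 were higher, with a median of 0.93, and summed to 8.09 to 8.56 with vehicle and 8.58 to 10.37 at 50 mg/kg. Myh2, Myh4 and Pvalb were at or below the array median. Osteoblast markers were higher for 5 of 6, and erythroid markers lower for 5 of 9. Their part was not tested, including for the muscle isoform Cox6a2. With that day's groups alone 6 members passed, 1 higher and 5 lower. Over all genes 951 were called with those groups alone, against 1941 in the main fit.

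Without antibody, the family varied strongly with the day of sampling. In vehicle arrays 80 of 84 members (95.2%) differed over the 8 days in osteoblasts, against 82.1% of all genes. In lining cells 65 of 84 (77.4%) did, against 59.9%, and in osteocytes 72 of 83 (86.7%), against 68.5%. The osteoblast exceptions were Cox6b2, Cox8b, Ndufa5 and Ndufc2. Relative to day 8, the median member difference in osteoblasts was 0.18, -0.09, -0.21, 0.64, 0.41, 0.41 and 0.29 on days 29, 85, 183, 197, 237, 267 and 309. Over all genes it was 0.02, -0.11, -0.23, 0.04, 0.02, 0.03 and -0.10. In lining cells the members gave 0.11, -0.06, -0.12, 0.72, 0.25, 0.45 and 0.27, and all genes 0.02, -0.04, -0.08, 0.05, 0.02, 0.03 and -0.02. In osteocytes the members gave -0.22, -0.43, -0.40, 0.36, -0.05, 0.14 and 0.10, and all genes -0.07, -0.19, -0.17, 0.02, -0.03, -0.01 and -0.03.

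Day 197 was the highest in all 3 cell types, and nearly the whole family took part. In osteoblasts 78 of 84 members were above their day 8 level, with medians of 0.71 for complex I, 0.28 for complex II, 0.70 for complex III, 0.40 for complex IV and 0.65 for complex V. In lining cells 77 of 84 were, with medians of 0.78, 0.56, 0.76, 0.47 and 0.61 in that order. In osteocytes 71 of 83 were, with 0.33, 0.27, 0.44, 0.41 and 0.39. All 16 complex V members were above day 8 in each cell type. The spread of signal of the vehicle arrays moved as well. From day 183 to day 197 it went from 2.68 to 3.53 in osteoblasts, 2.67 to 3.39 in lining cells and 2.63 to 3.36 in osteocytes. The age of the rats, the day of harvest and any processing shared by a day or by several days cannot be told apart. Each antibody difference above is therefore read only against vehicle arrays of its own day.

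Most members moved together across groups, but not all. Over the 60 group means, each cell type centred on its own mean, members were correlated with the family's median profile. The correlation had a median of 0.813 (85 members) against 0.097 for 12425 other genes. That profile was made from the members themselves, so the higher value for members is partly built in. Members ran from -0.709 (Cox6c-ps1) to 0.962, and other genes from -0.893 to 0.954. As a description, the family's profile also correlated with the spread of signal of the groups (0.84 over the same 60 groups). The genes outside the family with the most similar profile were Psmb1, a proteasome subunit (0.954), Sgf29 (0.947), and Polr2l, Ppil3 and Eif3d (0.946 each).

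Cell types were compared in vehicle arrays after putting all of them on common quantiles, since the deposited values of the 3 types have different array medians. Osteoblasts exceeded osteocytes for 20 of 84 members and were below them for 30 (59.5%, against 63.7% of all genes). Lining cells and osteocytes differed for 45 (53.6%, against 58.7%), 17 higher and 28 lower in lining cells. Osteoblasts and lining cells differed for 30 (35.7%, against 33.6%), 20 higher and 10 lower in osteoblasts. Median differences were -0.01, -0.02 and 0.01. With the deposited values, 82 of 84 members (97.6%) were higher in osteoblasts against each of the other 2 types, but so were most genes: 94.8% of all genes were called against lining cells and 96.8% against osteocytes. The member medians there were 0.45 and 0.71, against 0.42 and 0.67 over all genes, so that count says nothing about the family, and directions below are relative to the other genes.

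On common quantiles, 12 of 17 tested complex IV members differed between osteoblasts and osteocytes (70.6%, near the 63.7% of all genes). Of these, 9 were lower and 3 higher in osteoblasts, and the median over the 17 was -0.18. Of all genes called, 3703 were lower and 3851 higher. The lower members include Cox4i2 and Cox7a1, above the array median on only 6 and 5 of 40 vehicle osteoblast arrays. Cox6b1 (-0.61), Cox6a2 (-0.57), Cox6a1 (-0.37), Cox7c (-0.36) and Cox7b (-0.35) were lower, and Cox5b was higher (0.39). Complex I was mixed, with 22 of 34 called (64.7%), 11 higher and 11 lower, and a median of -0.03. Among its larger differences, Ndufa5 (0.87), Ndufc1 (0.80), Ndufs4 (0.68), Ndufb9 (0.66) and Ndufb6 (0.60) were higher and Ndufa6 (-0.49) was lower. Complex III had 5 of 7 called (2 higher, 3 lower, median -0.13). Complex V had 7 of 16 called (1 higher, 6 lower, median 0.01). The assembly factors Ndufaf7 (0.93) and Ndufaf1 (0.48) were higher and Ndufaf8 (-0.41) was lower, as was Atp5f1d of complex V (-0.51). With the deposited values, on which nearly every member was higher in osteoblasts, all of the lower genes named here had differences above 0. For Cox6b1 (0.0971) and Cox6a2 (0.0824) these did not pass (limma adjusted p = 0.0913 and 0.166).

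Lining cells shared several of these differences from osteocytes, with Ndufa5 (0.73), Ndufaf7 (0.65) and Cox4i1 (0.41) higher and Cox6a2 (-0.66) and Cox6b1 (-0.41) lower. These comparisons use the same osteocyte arrays, so their likeness is not independent. Atp5if1 (0.28) was higher in lining cells, and Atp5f1e (-0.32), Ndufb10 (-0.32), Ndufv1 (-0.29) and Ndufv2 (-0.28) lower. Between osteoblasts and lining cells, Ndufc1 differed most (1.02), followed by Ndufs4 (0.54), Ndufb9 (0.40) and Ndufv2 (0.39). Lower in osteoblasts were Ndufs1 (-0.38), Cox6a1 (-0.32), Cox7b (-0.29), Ndufa6 (-0.27) and Cox4i2 (-0.24), all of which were above 0 with the deposited values.

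**Figure D5:**
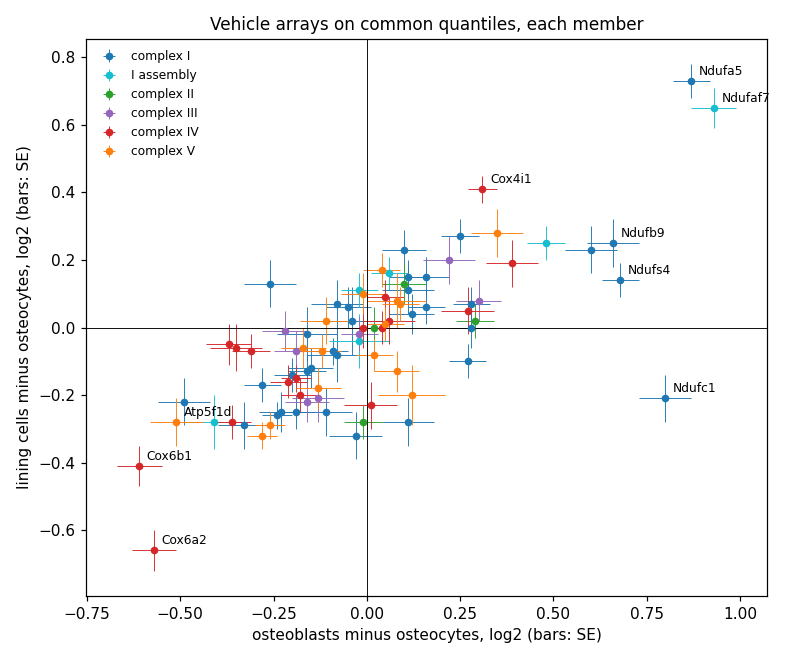
Difference in vehicle arrays on common quantiles between osteoblasts and osteocytes (x axis) and between lining cells and osteocytes (y axis), in log2 units with standard errors as bars. Each point is 1 member, coloured by complex. Both axes subtract the same osteocyte arrays, which alone draws points toward the diagonal; Ndufc1 is higher in osteoblasts (0.80) and lower in lining cells (-0.21) than in osteocytes, and Cox6a2 and Cox6b1 are lower in both.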

How the data were processed

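Laser-captured osteoblasts, lining cells and osteocytes of rats given vehicle or Scl-Ab were measured on 294 Affymetrix arrays. The deposited values are intensity (signal) values on a linear scale, summarised per probe set by RMA with affy 1.38.1 in R 3.0.1, per the submitters' processing notes, which also name Affymetrix Expression Console. From their values, the 3 cell types appear to have been normalized apart. The tests had been planned for log2 values, so log2 of the deposited intensity was taken first. No detection calls or read depth exist for these values. In the fits per cell type, precision depends on how many arrays a group has and on each gene's spread over all groups.

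Of 31042 probe sets, 20826 named 1 gene. For each gene the probe set with the highest mean log2 signal was kept (9 members had several), and 7 probe sets of the family that name several genes were left out. A listed pseudogene exists for 40 members, whose transcripts could share signal. Genes were kept where at least 5 arrays of a fit exceeded their array median. limma 3.58.1 in R 4.3.3 was fitted per cell type with 1 mean per treatment and day, p-values were adjusted over all genes, and the threshold was 0.05. The antibody effect on dosing days is the mean of both doses minus vehicle. F tests compared vehicle over days, the response between dosing days, and the response between cell types. Vehicle cell types were compared after quantile normalization with day as a factor, treating arrays as independent although rats are shared.

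Members were named by rule: the 4 largest rises and falls among those called per comparison (8 between cell types), a fixed set of core subunits and isoforms, and the 5 genes outside the family with the most similar profile. Further members called are named with their values alone. The members and lists were chosen with earlier results of these data known. The fits were tested on simulated data. Alternatives were no filter, averaged probe sets, quantile normalization, the spread of signal as a covariate, the compared groups alone, outlying arrays left out, and single arrays left out. Between cell types they also took in the deposited values and the vehicle arrays of each day left out in turn. No 2 arrays held identical values, and the highest correlation within a group was 0.9899. Promoters came from the RefSeq GRCr8 table.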

Additional observations from a re-analysis of the deposited data

Results flagged for a closer look

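Single arrays stood far from their group, by the gap to the nearest array relative to the group's range, in 7 of 149 groups tested, a share near the 1 in 20 that chance gives. For the mean log2 signal of the members, the lowest array was 6.33 in vehicle lining cells of day 85, 7.02 in lining cells at 3 mg/kg of day 197, and 6.28 in osteocytes at 3 mg/kg of day 29. The highest array was 7.18 in osteocytes at 50 mg/kg of day 8. In osteoblasts of day 237, Cox7a2l had a highest array of 9.09 at 50 mg/kg, and Sdha a lowest array of 6.83 with vehicle and of 6.05 at 50 mg/kg.

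The response to antibody in osteoblasts differed between dosing days for 22 members, with adjusted p (limma) of 0.000729 for Atp5f1b, 0.00119 for Ndufa12, 0.00216 for Atp5pb and 0.00459 for Cox5b. The response differed between cell types for 1 member, Cox4i2 (adjusted p = 0.000491).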

How the results depend on the processing

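No paired analysis was possible because the replicate numbers follow the order of deposition and the labels used here do not tie arrays to rats. Over all comparisons, the number of members called stayed within a factor of 1.5 in 211 results under other settings and moved further in 31. With 1 array left out it stayed in 641 and moved in 81. Named members kept their direction and side of the threshold in 1152 results under other settings, lost the call in 107 and reversed in 29. With 1 array left out they kept both in 852 and lost the call in 200. Each named member of the 3 cell type comparisons adds 13 results under other settings, so those totals rest largely on these comparisons. Antibody calls held less evenly over alternatives and omissions. They ranged from 20 of 20 for Ndufa12 in osteoblasts on day 8 to 3 of 16 for Cox4i1 in osteocytes on day 237. Where a count moved, the cause was not tested. With the compared groups alone, the osteoblast counts were 2 on day 8, 1 on day 29, 3 on day 183, 0 on day 309 and 13 for the response between days. In lining cells they were 4 on day 267 and 1 on day 237, and in osteocytes 0 on day 85, 2 on day 197, 1 on day 237, 6 on day 309 and 5 between doses. With the spread of signal as a covariate, osteoblasts gave 0 on days 29, 183 and 309, 4 on day 237 and 5 for the response between days. Lining cells gave 1 on day 8, 4 on day 237, 1 between doses and 1 for the response between days, osteocytes 0 on day 267, and the response between cell types 2. Quantile normalization gave 6 and 2 in osteoblasts on days 237 and 309, 1 between doses in lining cells, and 7 and 0 in osteocytes on days 85 and 267. Averaged probe sets gave 1 in lining cells on day 237. Leaving out 1 array gave, in osteoblasts, 7 to 33 on day 8, 1 to 12 on day 29, 0 to 1 on day 85, 0 to 8 on day 183, 5 to 9 on day 237, 0 to 14 on day 309 and 7 to 36 for the response between days. In lining cells it gave 0 to 2 on day 237, 0 to 3 on day 309 and 0 to 1 between doses. In osteocytes it gave 1 to 4 on day 85, 0 to 1 on days 183 and 197, 0 to 4 on day 267, 2 to 8 on day 237 and 5 to 13 between doses.

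Between cell types the deposited values, which differ in array median by cell type, gave 82 of 84 members (97.6%) for osteoblasts against each other type, all higher. Of all genes, 94.8% (against lining cells) and 96.8% (against osteocytes) were called on that scale, with all-gene medians of 0.42 and 0.67, so the reversals that follow lie within a shift of nearly every gene. Osteoblasts minus lining cells turned to 0.151 for Ndufs1, 0.141 for Cox6a1, 0.186 for Cox7b, 0.269 for Ndufa6, 0.0483 for Cox4i2, 0.293 for Atp5f1d, 0.277 for Uqcrq, 0.251 for Cox6b1 and 0.231 for Atp5f1b. Osteoblasts minus osteocytes turned to 0.0971 for Cox6b1, 0.0824 for Cox6a2, 0.31 for Atp5f1d, 0.347 for Ndufa6, 0.407 for Ndufaf8, 0.331 for Cox6a1, 0.334 for Cox7c, 0.38 for Cox7b, 0.563 for Ndufs1, 0.42 for Ndufv1, 0.552 for Atp5f1a, 0.222 for Cox4i2, 0.255 for Cox7a1 and 0.478 for Cox8a. Lining cells minus osteocytes turned to 0.0173 for Atp5f1d, 0.00772 for Ndufv2, 0.0712 for Cox7a1, 0.0316 for Cox7a2l and 0.0363 for Cox8a. With averaged probe sets, Atp5if1 in osteoblasts minus osteocytes turned to -0.0962. Signals near the array median, as for Cox4i2, Cox6a2, Ndufs4 and Ndufb8, limit what can be said of small changes.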
